A study of Mus musculus with 10 samples.

Results

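The intronic part of the mouse sperm methylome was described in 10 animals from the CpG sites that lie inside a protein-coding gene, outside every annotated exon and more than 2 kb from any annotated gene start. A CpG site counted when, with its 2 strands summed, all 10 animals covered it with 10 or more reads and it lay on an autosome. Of 892267 such autosomal CpG sites, 131440 (14.7%) were intronic by this rule, in 9637 host genes. Within 1 chosen transcript per gene, 35755 lay in the first intron and 76735 in a later intron. The other 18950 had no intron number, because 3810 lay in more than 1 protein-coding gene and 15140 lay outside the introns of the chosen transcript. The median distance to the start of the host gene was 37103 bp.

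All animals were male C57Bl/6 mice and spermatozoal DNA was sequenced after reduced representation bisulfite sequencing (RRBS), in which DNA is cut by MspI at CCGG, short fragments are kept and bisulfite turns unmethylated cytosines into bases read as thymine. In the P-generation, 3 males (D10, D11 and D13) were injected with decitabine at 0.1 µg per g body weight in 7.5% DMSO and 2 vehicle-control males (C8 and C14) with the solvent alone, starting at 7 weeks of age and repeated 3 times a week over 7 weeks. The F3-generation was not treated and was analysed at 14 weeks. Its 3 decitabine-line males were F3D1 and F3D31, both descended from D10, and F3D7, descended from D11, and its 2 vehicle-line males were F3C9, descended from C8, and F3C30, descended from C14. Decitabine, a cytidine analogue, is built into DNA and traps DNA methyltransferases. Only males were treated and mated on, with untreated females. As F3D1 and F3D31 share the ancestor D10, they are not independent lines, and D13 has no descendant here. Each sample was 1 animal.

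In mammals most CpG sites inside gene bodies carry methylation, which DNMT3 enzymes set down in male germ cells before birth and DNMT1 copies at each division. CpG islands, dense runs of CpG sites at promoters, mostly stay free of it. Introns are mostly made of the methylated kind of DNA, but they also hold alternative promoters, enhancers and inserted transposons. The first intron is the longest in many genes and often carries regulatory sequence.

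The sequences below, from the mouse reference GRCm38 (mm10), show a steadily low and a variable intron. They are written 5′ to 3′ on the strand of the gene, in windows of 150 bases placed on the most member CpG sites, and capitals mark the member CpG sites. The lowest intron by the mean over animals was intron 5 of Wiz, a zinc finger partner of the H3K9 methyltransferases G9a and GLP, and the window chr17:32364455-32364604 (minus strand) held 24 CpG sites, of which 21 were members with a mean level of 0.12% ± 0.09 (SD over 10 animals). Intron 10 of Skap1, an adaptor protein of T cells, varied most between animals, and its window chr11:96724197-96724346 (plus strand) held 11 members with a mean level of 30.8% ± 12.8.
Wiz: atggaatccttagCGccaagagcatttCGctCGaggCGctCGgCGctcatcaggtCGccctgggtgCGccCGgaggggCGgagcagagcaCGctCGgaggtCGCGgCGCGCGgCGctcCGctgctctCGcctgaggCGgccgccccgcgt
Skap1: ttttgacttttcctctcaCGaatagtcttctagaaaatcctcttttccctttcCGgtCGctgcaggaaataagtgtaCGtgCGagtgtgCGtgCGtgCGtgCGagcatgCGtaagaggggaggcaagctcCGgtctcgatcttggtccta

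A second pair shows first and later introns of 1 gene. In Usp30, a deubiquitinase of the mitochondrial outer membrane, the first-intron window chr5:114100533-114100682 (plus strand) held 20 members at 0.78% ± 0.72, and the later-intron window chr5:114103396-114103545 (plus strand), less than 3 kb downstream, held 8 members at 96.96% ± 2.39. Mxra7 had the opposite order, with 5 members at 93.0% ± 3.78 in the first-intron window chr11:116821540-116821689 and 11 members at 13.1% ± 5.02 in the later-intron window chr11:116811378-116811527 (both minus strand).
Usp30 first: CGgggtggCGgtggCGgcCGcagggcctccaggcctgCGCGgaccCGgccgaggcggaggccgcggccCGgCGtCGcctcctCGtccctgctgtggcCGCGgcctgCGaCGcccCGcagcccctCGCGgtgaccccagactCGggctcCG
Usp30 later: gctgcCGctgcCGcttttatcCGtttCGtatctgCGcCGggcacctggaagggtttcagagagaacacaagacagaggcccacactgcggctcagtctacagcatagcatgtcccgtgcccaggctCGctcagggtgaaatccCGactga
Mxra7 first: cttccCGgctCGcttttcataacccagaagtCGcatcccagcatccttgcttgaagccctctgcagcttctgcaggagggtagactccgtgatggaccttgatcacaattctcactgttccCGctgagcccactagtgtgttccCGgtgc
Mxra7 later: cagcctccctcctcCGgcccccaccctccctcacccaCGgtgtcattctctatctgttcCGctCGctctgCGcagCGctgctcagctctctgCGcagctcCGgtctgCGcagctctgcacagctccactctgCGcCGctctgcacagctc

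Summed over all CpG cytosines, the counts ran from 48903817 in D13 to 115158278 in F3D1, where a read over several cytosines counts at each. The median coverage of an intronic CpG site ran from 32 reads in D13 to 71 in F3D1, where the 95% Wilson interval of a level near 50% was 33.6% to 66.4% and 38.0% to 60.7%, which covers counting error only. As a check of the sperm label, CpG sites within 500 bp of the starts of maternally methylated imprinted genes should be free of methylation in sperm. Of 8 such genes, Snrpn, Mest, Plagl1 and Kcnq1ot1 had 0 CpG sites covered in all animals. Over Peg3, Peg10, Nnat and Airn (33 CpG sites) the mean level was 8.64% in C14, 21.2% in C8, 16.6% in D10, 17.7% in D11 and 15.6% in D13, and in F3 it was 10.7% in F3C30, 15.1% in F3C9, 12.2% in F3D1, 10.8% in F3D31 and 11.1% in F3D7. The loci thus lay above 0% on average, where spermatozoa alone would be near it, and C8 was the highest. By locus, C8 had 36.9% at Peg3, 25.5% at Peg10 and 22.5% at Nnat, but 0% at Airn, where C14 had 18.4%. The paternally methylated region upstream of H19 (2 CpG sites) was at 84.7% to 100%.

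C8 stood apart at intronic CpG sites. It lay at least 25 percentage points beyond all other 9 animals at 5475 members (4.17%), below them at 4342 and above them at 1133, while the same count was 528 in D11, 316 in F3C9 and 8 in C14. At members whose mean over the other 9 animals was between 25% and 75%, 10.6% of the levels in C8 were exactly 0% or 100%, at a median of 35 reads. In the other animals this share was between 0.177% in F3D1 and 1.12% in D13, the latter at a median of 32 reads. The mean levels, call counts, tiles and single CpG sites of the P-generation are therefore also given without C8.

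Intronic CpG sites were mostly either methylated or free of methylation. The mean level was 64.98% in C14 and 62.67% in C8, 63.07% in D10, 62.57% in D11 and 64.05% in D13. In the F3-generation it was 64.95% in F3C30, 63.98% in F3C9, 65.28% in F3D1, 64.81% in F3D31 and 65.33% in F3D7. The overall mean was 64.2% ± 1.07 (SD, n = 10). A level under 10% was found at 22.1% to 23.1% of the CpG sites of an animal, and a level over 90% at 38.2% (D11) to 46.4% (F3D7). Across animals, 22603 CpG sites (17.2%) stayed under 10% in all 10 and 19294 (14.7%) stayed over 90% in all 10, whereas 2228 (1.70%) lay between 25% and 75% in all 10. The range over animals had a median of 16.4 percentage points.

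The share of intronic CpG sites between 25% and 75% differed more between animals than the mean level did. It was 11.01% in C14, 19.5% in C8, 17.9% in D10, 19.7% in D11 and 14.02% in D13, and in F3 it was 10.6% in F3C30, 16.4% in F3C9, 11.3% in F3D1, 12.2% in F3D31 and 10.0% in F3D7. The 4 animals with the largest shares, D11, C8, D10 and F3C9, included 3 of the 4 with the highest mean level at the imprinted loci above. The part of other cells or of library quality in this share was not tested.

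**Figure D1:**
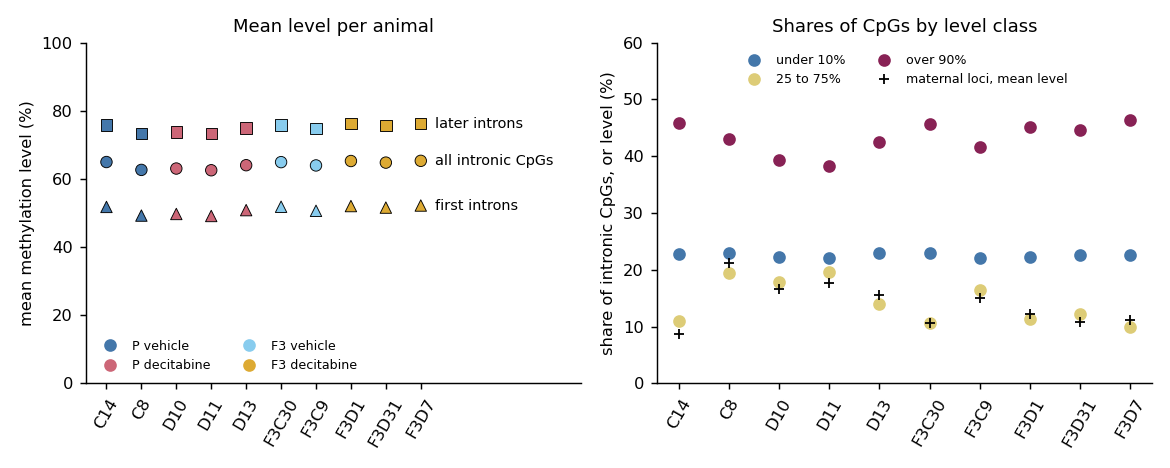
Left, mean methylation level (%) of all intronic CpG sites, of first introns and of later introns, 1 marker per animal, coloured by group. Right, the share of intronic CpG sites (%) under 10%, between 25% and 75% and over 90% in each animal, with the mean level of the 4 imprinted loci as crosses. First introns lie between 49.2% and 52.2% and later introns between 73.3% and 76.3% in every animal, while the intermediate share runs from 10.0% to 19.7%.

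Introns carried more methylation than coding exons at the same distance rule. The 65866 CpG sites in coding exons more than 2 kb from gene starts had 53.9% to 55.8%, and the intronic mean was 9.28 percentage points higher (SD over animals 1.33), higher in 10 of 10 animals (exact sign-flip test over animals, two-sided p = 0.00195, the smallest it can give). Against 123483 CpG sites outside genes and away from gene starts, the difference was -0.544 percentage points (range -2.39 to 0.771, exact p = 0.172). The 524075 CpG sites within 2 kb of a gene start were at 5.16% to 5.72%.

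Within introns the level followed the local density of CpG sites. Of the members, 37.3% lay in a CpG island, here a stretch found from base composition alone, and had a mean level of 34.1% ± 0.31 (SD, n = 10). Outside islands it was 82.1% ± 1.57. With 0 to 4 other CpG sites within 100 bases on either side the mean was 83.8% ± 1.60, with 5 to 9 it was 70.5% ± 1.08, with 10 to 19 it was 22.6% ± 0.29, and with 20 or more it was 1.04% ± 0.11. At this highest density, 88.4% of 12464 members were under 10% in all 10 animals and 0 were over 90% in all 10. These values come from the same libraries and describe CpG sites, not independent replicates.

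Being far from the annotated start of a gene did not mean being far from every transcript start. Of the members, 35991 (27.4%) lay within 2 kb of the start of some annotated transcript, and they had a mean level of 30.3% ± 0.55. The others had 76.9% ± 1.27. Islands near such a start were at 9.94% ± 0.16, and islands with none within 2 kb were at 58.1% ± 0.49. Members in soft-masked repeats, mostly transposon remnants, made up 10.0% and had 80.3% ± 0.33, against 62.4% ± 1.16 in the rest.

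The flanking bases reflect how the libraries were made. CCGG, the MspI site, surrounded 54.2% of the intronic CpG sites and 34.5% of all autosomal CpG sites tested, and CCGC or its reverse complement GCGG surrounded 11.6% and 22.0%. Outside islands the mean level differed little between the 10 possible flanks (each pooled with its reverse complement), from 78.3% at CCGC to 83.0% at CCGG. Inside islands it ran from 17.3% at GCGC to 49.7% at ACGT.

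First introns were less methylated than later introns in every animal. The mean was 50.9% ± 1.18 in first and 75.02% ± 1.15 in later introns, a difference of -24.1 percentage points (SD 0.07 over animals, range -24.2 to -24.0), with first introns lower in 10 of 10 animals (exact sign-flip test, two-sided p = 0.00195, the smallest it can give). By intron number the level was 66.9% ± 1.27 in intron 2, 72.3% ± 1.12 in intron 3, 71.9% ± 1.16 in intron 4, 78.2% ± 1.13 in introns 5 to 9 and 81.0% ± 1.07 in intron 10 or later. Last introns, of whatever number, had 73.6% ± 0.88. In genes whose chosen transcript had a single intron the level was 44.04% ± 0.65.

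First and later introns differed in makeup. Among first-intron members 46.7% lay in an island and 35.5% within 2 kb of a transcript start, against 28.9% and 19.4% in later introns. The median distance to the gene start was 16681 bp in first and 54836 bp in later introns. By class of distance to the gene start, first introns were lower by 14.8 percentage points at 2 to 5 kb and 20.4 at 5 to 10 kb. They were lower by 17.8 at 10 to 20 kb, 17.5 at 20 to 50 kb and 20.7 beyond 50 kb. Each held in 10 of 10 animals, and distance was not matched within a class. Outside islands and more than 2 kb from every transcript start, first introns were at 81.0% ± 1.95 and later introns at 84.9% ± 1.49, and the difference was -3.82 percentage points (range -4.50 to -3.30, 10 of 10 animals, exact p = 0.00195). Near a transcript start it was -41.4 percentage points. With each intron weighing the same, whatever its number of CpG sites, the difference was -14.9 percentage points.

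**Figure D2:**
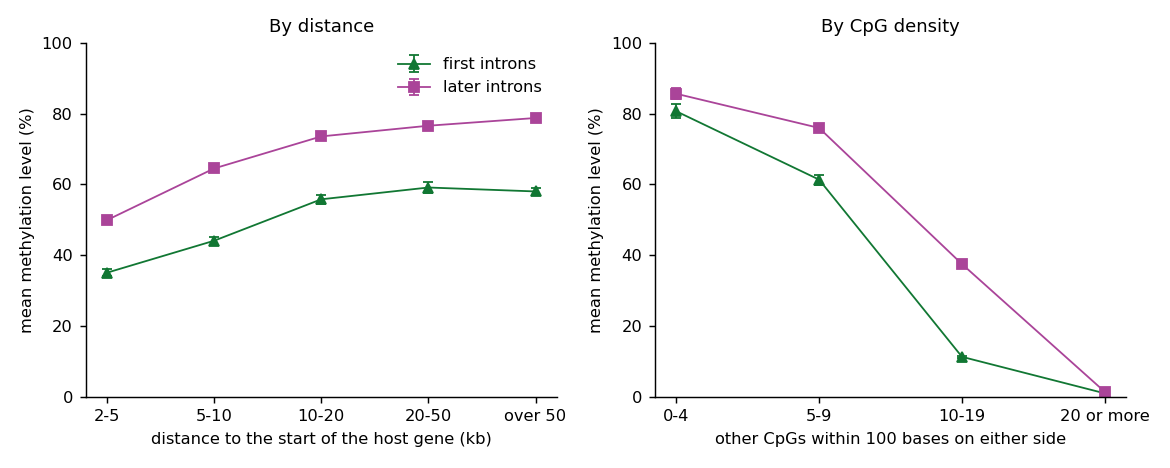
Mean methylation level (%) of first and later introns by distance to the start of the host gene (left, kb) and by the number of other CpG sites within 100 bases on either side (right). Points are means over the 10 animals and bars are SDs over animals. First introns lie below later introns in every distance class, and at 20 or more neighbouring CpG sites the values are 0.97% and 1.39%.

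First-intron members next to the 5′ splice site were nearly free of methylation. As members lie more than 2 kb from gene starts, 99.7% of these lay within 2 kb of some annotated transcript start, and 97.1% lay in an island. Members of first introns within 200 bases of the 5′ splice site (3768 CpG sites) had a mean level of 2.15% ± 0.11, and 84.0% of them were under 10% in all 10 animals. In later introns the same place (9871 CpG sites) had 68.7% ± 0.72, with 38.7% near a transcript start and 41.9% in an island. In all introns together, the level within 200 bases of the 3′ splice site was 66.9% ± 0.62, and more than 200 bases from both it was 69.9% ± 1.30.

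Among 843 introns with at least 20 members, 227 had a mean level under 10% and 167 of these were first introns, while 77 had a mean over 90% and 21 of these were first introns. In all, 460 of the 843 were first introns. The 5 lowest were in Wiz (0.20% ± 0.17), Sirt1, a deacetylase (0.37% ± 0.43), Hmgb1, a chromatin protein (0.41% ± 0.17), Tjp1, the tight junction protein ZO-1 (0.45% ± 0.20), and Mllt10, a cofactor of the H3K79 methyltransferase DOT1L (0.46% ± 0.30). All their members lay in islands and within 2 kb of a transcript start. The 5 highest were in Scarb1, the receptor for high-density lipoprotein (96.4% ± 0.84), Inpp5a, an inositol phosphate phosphatase (96.3% ± 1.31), Tmem104 (96.2% ± 1.54), Cmip (95.7% ± 1.99) and Dnah17, a dynein heavy chain of the sperm tail (95.6% ± 1.54). In Inpp5a 66.7% of the members lay in an island with none of them within 2 kb of a transcript start. In Scarb1 40.0% lay in an island and 80.0% lay within 2 kb of a transcript start.

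The introns that varied most between animals were at intermediate levels. Intron 10 of Skap1 had 57.9% in C8, 48.2% in D11, 43.8% in F3C9, 43.5% in D10, 40.1% in F3D1 and 37.7% in D13, and 27.1% to 31.7% in C14, F3C30, F3D31 and F3D7. Intron 5 of Tnxb, the matrix protein tenascin X, had 43.8% in C8, 34.4% in D11 and 31.03% in D10, and 16.8% to 24.9% in the other animals. C8 and D11 were lowest in intron 3 of Tns1, a focal adhesion protein (35.4% and 51.3% against 56.6% to 66.95% in the others), and in intron 23 of Bcas3 (54.2% and 61.3% against 64.9% to 80.4%). Intron 2 of Nfic, a transcription factor, had 55.0% in C8, 55.6% in D11 and 55.7% in F3C9, and 77.6% in F3D7. C8 was the extreme animal and D11 the next in each of these 5 introns, high in Skap1 and Tnxb and low in Tns1, Bcas3 and Nfic. The part of library quality in this was not tested.

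Of 422 genes with at least 10 members in the first and at least 10 in later introns, the first intron was lower in all 10 animals in 237 and higher in all 10 in 85, with a median difference of -8.84 percentage points. A gap of at least 25 points occurred in 124 genes with the first intron lower and in 24 with it higher. The widest were Usp30 (1.09% first, 96.6% later), Kifc3, a kinesin motor (1.89% and 95.3%), Cdk2ap1, a subunit of the NuRD remodeller (1.84% and 93.6%), Cacna1d, a pore subunit of L-type calcium channels (5.95% and 94.7%), and Hlcs, which attaches biotin to carboxylases (1.88% and 90.4%). In the opposite direction stood Mxra7 (94.4% first, 30.1% later), Cldn14, a tight junction claudin (93.1% and 34.7%), Celf4, an RNA-binding protein (90.8% and 32.7%), and the Wnt ligands Wnt3a (73.9% and 17.1%) and Wnt3 (58.4% and 3.93%). In each of these 10 genes all 10 animals had the same order.

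**Figure D3:**
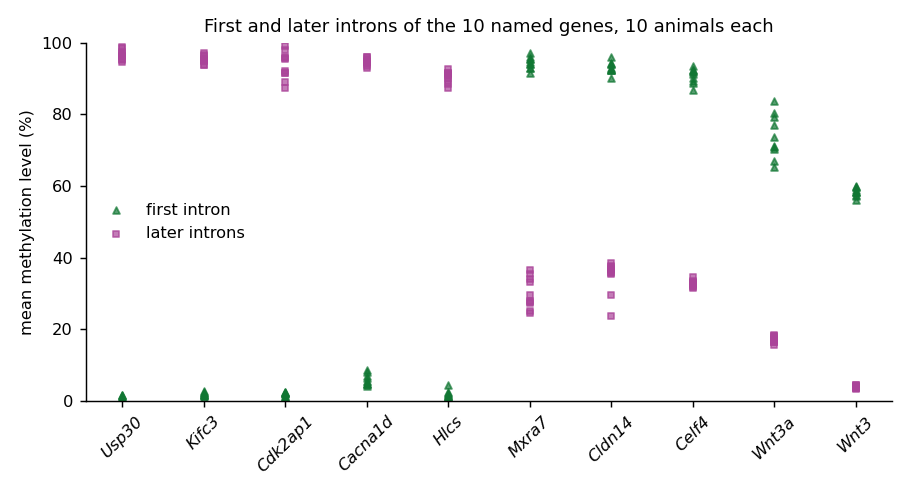
Mean methylation level (%) of the members in the first intron (triangles) and in later introns (squares) of 10 genes, 1 marker per animal. The 5 genes on the left have the largest deficit of the first intron and the 5 on the right the largest excess, and in none of them do the markers of the first and later introns overlap.

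Gene groups differed in how methylated their introns were. Introns of 88 developmental transcription factors of the Pax, Sox, Hox, Fox and related families (2497 members) had a mean level of 30.2% ± 0.53 and a median CpG site of 4.70%, beside 64.2% and 85.7% over all members, and 64.0% of these CpG sites lay in islands, beside 37.3%. Among them, Foxf2 (1.64%) and Lhx5 (1.91%) were at the low end and Foxp4 (90.9%) and Runx2 (87.6%) at the high end. Proteins that take part in writing or erasing DNA and histone marks (37 genes, 756 members) had 38.2% ± 1.00. Levels ran from 1.84% in the H3K27 demethylase gene Kdm6b and 10.2% in the dioxygenase gene Tet3 to 66.9% in Dnmt1 and 83.6% in Kdm4a. Ion channels and synaptic adhesion molecules (119 genes, 2854 members) had 69.6% ± 1.05, from 14.8% in the potassium channel gene Kcnh2 to 93.1% in the calcium channel subunit gene Cacna2d3. Genes of spermatogenesis (31 genes, 269 members) had 73.0% ± 1.18, with 34.5% in first and 86.8% in later introns. Tdrd7 and Tdrd9, tudor proteins of germ granules, had 12.99% and 91.6%. The genes named for a group have at least 20 members.

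The mean intronic level of the groups was next compared to see whether decitabine changed it in treated males or their F3 descendants. In P, vehicle-control animals had 63.8% ± 1.63 (SD, n = 2) and decitabine treated animals 63.2% ± 0.75 (n = 3), so the decitabine mean minus the vehicle mean was -0.594 points (two-sided p = 0.6 in an exact permutation test over the 10 ways to assign 5 animals). In F3, vehicle-line animals had 64.5% ± 0.69 and decitabine-line animals 65.1% ± 0.29, and the difference was 0.676 points (exact permutation p = 0.3). This test cannot give a p below 0.1. Both differences were within the spread of the animals, and the groups overlapped in both generations. Without C8 the P difference was -1.75 percentage points (exact permutation p = 0.25, the smallest that 4 animals allow), and without C14 it was 0.560. The P and F3 differences differed by 1.27 percentage points (exact permutation over 100 assignments, p = 0.32), and by 2.42 points without C8 (exact permutation p = 0.05). With F3 set against P within each line of descent, F3D1 and F3D31 averaged, the decitabine and vehicle lines differed by 1.73 points (exact permutation p = 0.333, the smallest that 2 lines against 2 allow).

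The group differences of single classes of intronic CpG sites were also small. First introns differed by -0.615 percentage points in P and 0.698 in F3, and later introns by -0.608 and 0.727. Island CpG sites differed by -0.371 in P, with all decitabine treated animals below both vehicle-control animals (exact permutation p = 0.1), and by 0.277 in F3 (p = 0.3). Members in repeats differed by -0.444 in P (exact permutation p = 0.1) and 0.250 in F3 (exact permutation p = 0.4). The share of CpG sites over 90% was 44.5% ± 1.92 in vehicle-control and 40.0% ± 2.23 in decitabine treated P animals (difference -4.41 percentage points, exact permutation p = 0.2), and in F3 it was 43.7% ± 2.89 and 45.4% ± 0.86 (p = 0.5). Without C8, the P differences from C14 alone were -1.88 points in first introns, -1.85 in later introns, -0.455 in islands, -0.785 in repeats and -5.76 in the share over 90% (exact permutation p = 0.25 for each, the smallest possible).

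Single CpG sites were then tested on the reads pooled within a group, with a likelihood-ratio test of a logistic model, adjusted over all 892267 CpG sites. A site was called at a q-value under 0.01 and a difference of at least 25 percentage points. In P, 1598 members (1.22%) were called, beside 0.661% of all CpG sites tested. Of these, 657 (0.4998%) were higher in decitabine treated animals, beside 0.31% of all, and 941 (0.716%) were lower, beside 0.351%. In F3, 547 members (0.416%) were called, beside 0.211% of all, with 456 (0.347%) higher, beside 0.145%, and 91 (0.0692%) lower, beside 0.066%. The 5 animals of the generation were fully separated by group at 437 of the higher and 814 of the lower CpG sites in P, and at 348 and 75 in F3. These are 66.5% and 86.5% of the called members in P and 76.3% and 82.4% in F3, beside 72.1%, 82.1%, 78.0% and 79.97% of the called CpG sites among all tested. The pooled model has no term for the spread between animals. Away from gene starts, 1.39% of CpG sites in coding exons and 1.42% of those outside genes were called in P. In F3 these shares were 0.383% and 0.509%. The share over all CpG sites includes 524075 within 2 kb of a gene start, with 0.224% called in P and 0.0616% in F3.

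Called shares were next set side by side at like methylation levels, taken from the other generation. Among CpG sites between 25% and 75% in the F3-generation, 4.62% of 15052 members and 4.51% of 45677 other CpG sites were called in P. Over 90% in F3 these shares were 0.387% and 0.363%, and under 10% they were 0.0708% and 0.0251%. Among CpG sites between 25% and 75% in the P-generation, 1.72% of the members and 1.49% of the others were called in F3. Per intron class, 0.411% of first-intron members were higher and 0.755% lower in P, against 0.555% and 0.718% in later introns. In F3, 0.389% of first-intron and 0.356% of later-intron members were higher. These shares are descriptions, since neighbouring CpG sites share reads.

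The calls turned on the vehicle-control animals. Without C8, 664 members (0.505%) were called in P, beside 0.271% of all CpG sites, and 257 of these were among the 1598. Without C14, so that C8 was the lone control, 10249 (7.80%) were called, beside 4.31% of all CpG sites, and 6693 of them were higher in the decitabine group. In F3, 135 members (0.103%) were called without F3C9, beside 0.0704% of all, of which 26 were among the 547, and 3207 (2.44%) without F3C30, beside 1.24% of all. Leaving out 1 decitabine animal gave 1379 to 2014 calls in P (1.05% to 1.53%, beside 0.594% to 0.830% of all) and 527 to 663 in F3 (0.401% to 0.504%, beside 0.217% to 0.252% of all). limma on single CpG sites and an F test with moderated dispersion, which both allow for the spread between animals, made 0 calls in either generation. In limma on log2 ratios 11022 members in P (8.39%) and 10043 in F3 (7.64%) had an unadjusted p under 0.05. In the F test these were 3478 (2.65%) and 3719 (2.83%). The like shares over all CpG sites are not given here, so nothing particular to introns is read from them.

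**Figure D4:**
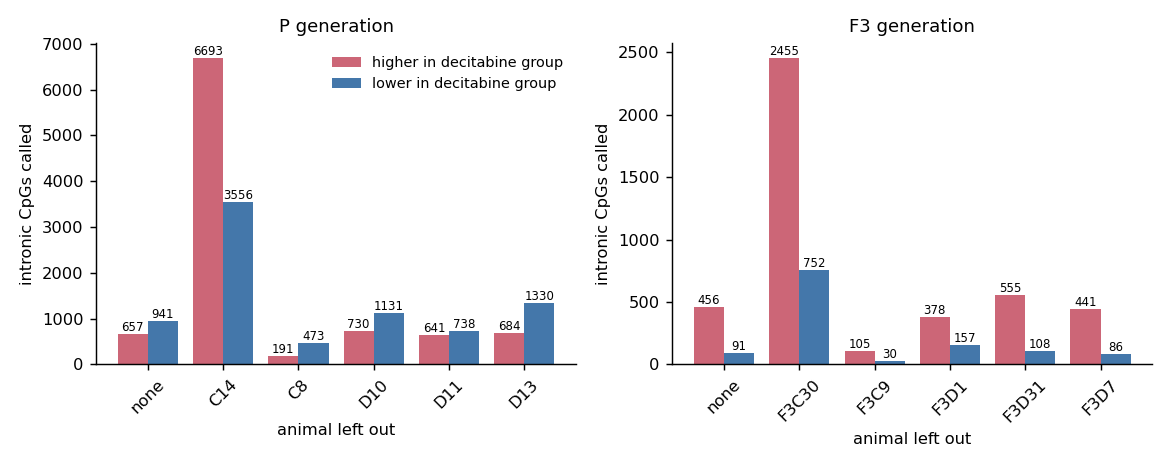
Number of intronic CpG sites called as higher or lower in the decitabine group, in P (left) and F3 (right), with all 5 animals (none) and after dropping 1 animal at a time. In P the higher and lower counts are 657 and 941 with all animals, 6693 and 3556 without C14 and 191 and 473 without C8.

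The mean levels of the called members are given per animal. In the generation of the call, the gap between the groups follows from how the members were chosen. At the 657 members higher in P, the mean was 22.8% in C8 and 58.8% in C14, against 73.8% in D10, 74.5% in D11 and 74.3% in D13. All F3 animals lay between 65.3% and 68.3% at these CpG sites. At the 941 lower members, C8 had 86.6%, C14 73.0%, D10 48.8%, D11 44.03% and D13 51.4%, and F3 animals 61.8% to 67.1%. At the 456 members higher in F3, F3C9 had 39.6% and F3C30 62.2%, and the decitabine-line animals had 77.9% to 80.9%. At the 91 lower members F3C9 had 71.9%, F3C30 55.9% and the decitabine-line animals 34.5% to 36.9%. At these members, chosen by the difference between the F3 groups, F3C9 was farther from the decitabine-line animals than F3C30 in both directions.

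CpG sites called in P mostly showed a small difference in F3. Of the 657 higher in P, the F3 difference was under 10 points at 492 (74.9%) and had a median of 1.03 points, and of the 941 lower in P it was under 10 points at 622 (66.1%) and had a median of 2.93 points. In total 25 members were called in both generations, 7 higher in both, 3 lower in both and 15 in opposite directions. Shares over all CpG sites are not given for these counts, so they describe the called members only. The 3 lower in both lay in an overlap of Schip1 with another gene, in Pkm, a pyruvate kinase, and in Styx, a phosphatase-like protein. Higher in both with the groups separated in both were CpG sites in Pkd1l2 (39.6 points in P, q = 0.00591, and 51.0 points in F3, q = 1.553e-06) and Atxn7l1 (38.5 points, q = 0.000756, and 27.5 points, q = 0.0051). The Pkd1l2 site, in intron 10, had 31.3% in C14, 23.8% in C8, 71.4% in D10, 54.6% in D11 and 80.0% in D13, and 38.5% in F3C30, 23.7% in F3C9, 78.6% in F3D1, 58.3% in F3D31 and 90% in F3D7. At the Atxn7l1 site C8 was the lowest P animal, at 0%. In F3 the groups were only narrowly separated there, with 70.83% in F3C30 and 71.79% in F3D31, and F3C9 had 46.67%. These genes were named after their values were seen.

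The CpG sites with the largest differences, from those covered by 20 or more reads per animal of the generation and with separated groups, are shown with 80 bases around them, with the CpG site in capitals. Hunk, a protein kinase gene, is shown for chr16:90483346-90483425 (plus strand), Ckm, muscle creatine kinase, for chr7:19410919-19410998 (plus strand), Kcnmb2, a subunit of BK potassium channels, for chr3:32177940-32178019 (plus strand), and Pcdh15, a protocadherin of hair cells, for chr10:73124169-73124248 (plus strand).
Hunk: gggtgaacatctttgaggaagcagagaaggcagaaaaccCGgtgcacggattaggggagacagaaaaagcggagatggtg
Ckm: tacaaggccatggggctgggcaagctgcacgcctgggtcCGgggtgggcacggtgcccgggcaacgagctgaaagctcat
Kcnmb2: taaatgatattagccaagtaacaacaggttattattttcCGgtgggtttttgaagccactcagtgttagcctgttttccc
Pcdh15: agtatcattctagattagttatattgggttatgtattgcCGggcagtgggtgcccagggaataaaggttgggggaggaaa

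The largest increase in P was in intron 8 of Hunk. The level was 31.6% in C14 and 0% in C8 (0 of 25 reads, which allows up to 12.0%), and 63.5% in D10, 90.9% in D11 and 47.6% in D13, a pooled difference of 49.8 percentage points (q = 2.833e-07). In F3 it was 51.9% and 44.2% in the vehicle line and 38.3%, 47.1% and 38.9% in the decitabine line. The others were a CpG site in intron 2 of Nfib, a nuclear factor I protein (45.5 points), in intron 8 of Wscd2, in a repeat (45.3), in intron 3 of Ppard, a nuclear receptor (44.9), and in intron 2 of Lhfp (43.6). C8 was the lowest animal at all 5, at 0% to 16.3%. Without C8 the pooled difference was 37.3 points at Hunk and 35.4 at Wscd2. It fell below the 25 points of a call at Ppard (21.7), Nfib (16.2) and Lhfp (13.5). At Lhfp C14 had 86.5% and the decitabine treated animals 100%.

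The largest decrease in P was in Ckm, 67 bp from a transcript start and outside the introns of the chosen transcript. The level was 90.5% in C14 and 100% in C8, and 55.9% in D10, 39.02% in D11 and 46.2% in D13, a difference of -47.2 points (q = 5.571e-08). In F3 all animals had 74.2% to 93.3%. Without C8 it was -43.98 points. Decreases of 44.4 to 46.3 points followed in intron 10 of Ccser1, intron 3 of Rspo1, a secreted enhancer of Wnt signalling, intron 1 of Tgif2, a homeobox repressor, and intron 1 of Patz1, a zinc finger factor, where the CpG site lay 50 bp from a transcript start. At Ccser1 C8 had 100% and C14 61.5%, and the difference of -46.3 points was -28.2 without C8. The Tgif2 site had 66.7% in C14 and 65.2% in C8, and 17.1% in D10, 25% in D11 and 23.1% in D13. Its difference of -45.0 points kept between -46.8 and -42.0 with any animal left out. The site was chosen for its difference in these same animals, so this range is no separate support. The F3 difference was 15.6 points (q = 0.0846).

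In F3 the largest increase was in intron 3 of Kcnmb2. The level was 35% in F3C30 and 26.1% in F3C9, and 90.5% in F3D1, 38.7% in F3D31 and 83.3% in F3D7 (46.8 points, q = 3.139e-05), so F3D31 lay close to F3C30 although it shares the ancestor of F3D1. In P the site had 46.7% to 85.7%. Next came intron 10 of Prkcz, an atypical protein kinase C, with 3.57% in F3C9 and 60.7% in F3C30, intron 12 of Adamts17, a secreted protease, and intron 2 of Nek11, a kinase (41.5 to 43.8 points). Without F3C9 the differences were 15.2 points at Prkcz and 11.8 at Adamts17. At Nek11 the vehicle-line animals were close, with 48.0% and 37.9%, against 79.5%, 90.5% and 85.7%. The difference kept between 36.1 and 46.2 points with any animal left out. The site was chosen for its difference in these same animals, so this range is no separate support. Of 4 members within 500 bp, the site included, 3 were called in the same direction, and neighbouring CpG sites can share reads. At Kcnmb2, Prkcz and Adamts17, and at each F3 decrease named below, only the site itself was called that way within 500 bp.

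The largest decrease in F3 was in Pcdh15, outside the introns of the chosen transcript. The level was 43.4% in F3C30 and 78.0% in F3C9, and 21.0% in F3D1, 20.8% in F3D31 and 17.0% in F3D7 (-40.9 points, q = 8.056e-08). In P it was 7.14% to 38.4%. Decreases of 31.8 to 33.9 points were found in intron 3 of Tcf7l1, a transcription factor of Wnt signalling, intron 1 of Hoga1, an aldolase of hydroxyproline breakdown, intron 7 of Spock3 and intron 4 of Ngef. Among the F3 animals, F3C9 was the highest at Tcf7l1 (74.5%), Hoga1 (64.1%) and Ngef (66.7%), and F3C30 at Spock3 (68.4%). Without F3C9 the difference was -24.1 points at Pcdh15, -12.7 at Tcf7l1 and -11.9 at Ngef.

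**Figure D5:**
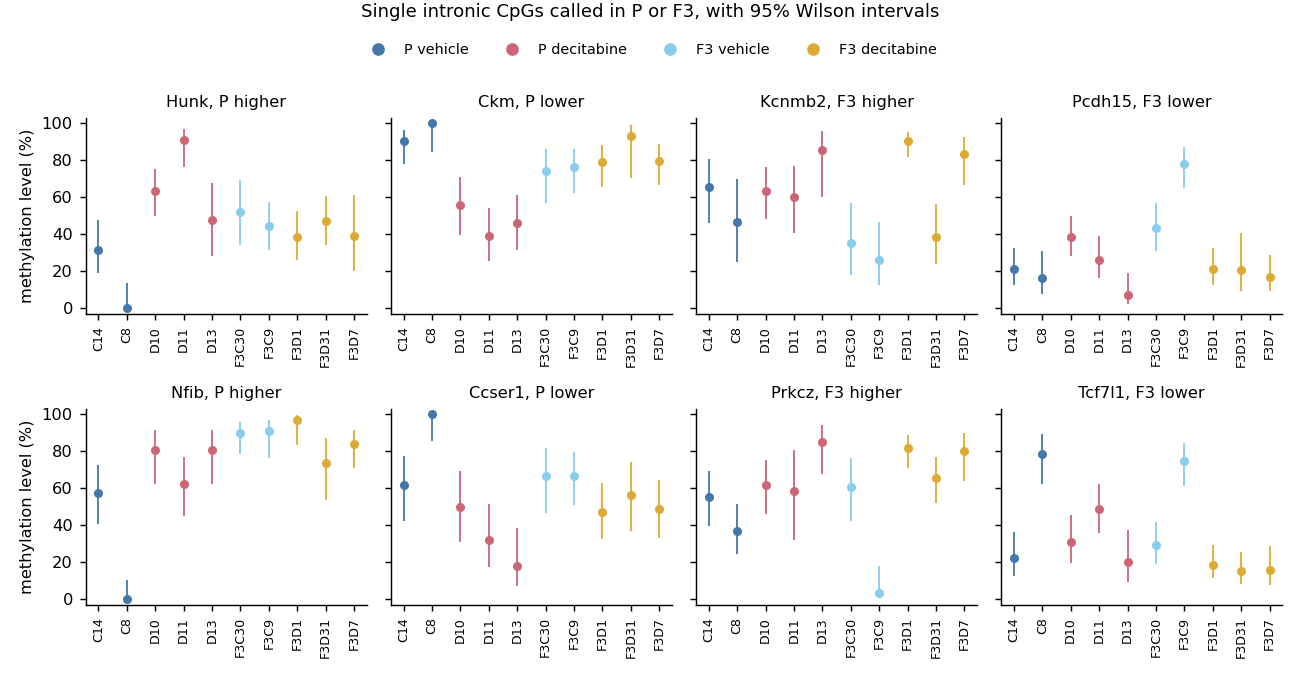
Methylation level (%) of 8 single intronic CpG sites in each of the 10 animals, coloured by group, with 95% Wilson intervals. The top row holds the site with the largest difference of each kind and the bottom row the next. At Hunk and Nfib C8 has 0%, at Ckm and Ccser1 it has 100%, and at Prkcz F3C9 has 3.57%.

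Regions were compared as 1 kb tiles with at least 3 CpG sites, of which 15923 of 75317 held members alone. limma on the log2 ratio of methylated to unmethylated reads, with 1 added to each, called 0 intronic tiles in P and 0 in F3 at an adjusted p under 0.05, beside 0.0% of all tiles in both. The smallest adjusted p was 0.511 in P and 1 in F3. At an unadjusted p under 0.05, 1586 intronic tiles (9.96%) stood out in P, beside 8.67% of all tiles, and 676 (4.25%) in F3, beside 3.55%. In P the level was lower in decitabine treated animals in 58.5% of the intronic tiles, none of which was called, and the median log2 ratio difference was -0.16, beside -0.14 over all tiles. With C8 as the lone control, 811 intronic tiles (5.09%) were called in P, beside 4.47% of all tiles, and leaving out any other animal gave 0.

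The intronic tiles with the smallest p were highly methylated, with no animal of the generation under 85.2%, and none was called. In P, a tile in Dync1h1, the heavy chain of cytoplasmic dynein, had 99.6% and 100% in vehicle-control and 96.8%, 92.6% and 93.8% in decitabine treated animals (log2 ratio difference -3.05 ± 0.55 (SE), limma adjusted p = 0.511). Tiles in Alms1, a centrosomal protein, Amotl1 and Clec10a, a lectin of macrophages, had differences of -3.22, -3.16 and -3.40, and a tile in Rnf157 had 2.86. In F3, tiles in Crocc, the rootlet protein of cilia, Dync1i1, Alpk2, Vmn2r91, a pheromone receptor, and Snx29 had log2 ratio differences between -3.45 and -2.82, with limma adjusted p = 1 for each. The Crocc tile had 100% in both vehicle-line animals and 95.3% to 96.3% in decitabine-line animals.

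Called members of the gene groups were counted beside 1.22% of all members called in P and 0.416% in F3. Of 2497 members in developmental transcription factors 9 were higher and 16 lower in P, and 6 and 1 in F3 (1.00% and 0.280% in all). In ion channels and synaptic adhesion molecules these counts were 9 and 19 in P and 9 and 2 in F3, of 2854 (0.981% and 0.385%). Proteins of DNA and histone marks had 0 higher and 2 lower in P and 4 and 1 in F3 (0.265% and 0.661%). Spermatogenesis genes had 1 and 5 in P (2.23% of 269) and 0 and 0 in F3. The mean level of each group differed by -1.37 to -0.245 percentage points in P and by -0.162 to 0.643 in F3. The smallest exact permutation p was 0.1, for developmental transcription factors in F3 (0.478 points), and this test cannot give less.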

How the data were processed

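RRBS counts of 10 animals (P-generation: 2 vehicle-control, 3 decitabine treated; F3-generation: 2 and 3) were used, grouped by the sample labels. Per the labels, reads were processed with CASAVA 1.8.2, Trim Galore 0.3.3, cutadapt 1.1 and Bismark 0.10.1 against mm10. The authors deposited, for each animal and each CpG cytosine, the counts of methylated and unmethylated reads in 1 cell, not normalized and with strands listed separately. Reads without molecular identifiers may include PCR copies, so intervals cover counting error only.

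Strands were summed, and CpG sites with at least 10 reads in all 10 animals were annotated with GENCODE vM21 on GRCm38, whose sequence had CG at every autosomal position. The chosen protein-coding transcript was that of highest APPRIS principal rank, then of longest coding sequence. Islands were 200 bp windows with over 50% GC and an observed to expected CpG ratio over 0.6. Levels are means over CpG sites. Group means were compared by exact permutation, first and later introns by sign flips over animals, CpG sites by a likelihood-ratio test of pooled counts and tiles by limma 3.58.1 (R 4.3.3) over all 4 groups, with Benjamini-Hochberg adjustment over all autosomal features. Python 3.11.15, numpy 2.4.6, scipy 1.17.1 and pandas 2.3.3 were used. The scripts were tested on simulated data.

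Named sites met q under 0.01, at least 20 reads in each animal of the generation and separated groups, taking the 5 largest increases and decreases, 1 per gene and none on chromosome 18. Named introns needed 20 members, named genes 10 in the first and 10 in later introns, and tiles were taken by p, 5 of each kind. Some items that this rule names are not reported here. The members and gene lists were chosen with earlier results of these data known. Alternatives were a minimum of 20 reads, a minimum of 10 reads per strand, pooled reads, equal weight per intron, distance to every transcript start, first introns over all transcripts, thinning, a limit on the highest coverage, other tests and thresholds, 500 bp tiles, linear levels and leaving out each animal.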

Additional observations from a re-analysis of the deposited data

How the results depend on the processing

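The mean intronic level depended on which CpG sites and weights entered. It was 58.0% with at least 20 reads, 56.7% as all methylated over all reads, 80.1% with each intron weighing the same and 76.9% beyond 2 kb from every transcript start, and 64.0% to 64.4% with any animal left out. As all methylated over all reads the group differences turned to 0.112 points in P and -0.0160 in F3, and the difference between them to -0.128. The cause was not tested. With any animal left out the P difference ran from -1.75 to 0.560 points, the F3 difference from 0.188 to 1.16, and the difference between them from 0.115 to 2.42. First minus later introns kept its direction in every setting run, from -27.3 to -8.47 points, and from -24.1 to -24.1 with any animal left out. Its sign-flip p was the smallest possible in each setting, which follows when all animals share a direction. Called members numbered 777 in P and 229 in F3 with at least 20 reads, where fewer CpG sites were tested, 4785 and 2380 at a difference of at least 10 points, and 0 and 0 by both the F test with moderated dispersion and limma. Thinning each CpG site to its lowest coverage left 1184 in P, 598 higher and 586 lower against 657 and 941, and 84 in F3. The share over all CpG sites is not given for these settings, so the counts describe the settings and nothing particular to introns. Leaving out an animal gave 664 to 10249 called members in P, lowest without C8 and highest without C14, and 135 to 3207 in F3, lowest without F3C9 and highest without F3C30. Called intronic tiles ran from 0 to 811 in P with an animal left out and from 0 to 0 in F3. No paired analysis was possible because the vehicle and decitabine groups compared share no replicate numbers. Pairing P with F3 by line of descent, an alternative chosen after seeing the data, gave a difference of 1.73 points between the generations, in the same direction. At 10 reads a level near 50% had a 95% Wilson interval from 23.7% to 76.3%, so levels of single CpG sites in single animals are coarse.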
